A study of Mus musculus with 7 samples.

Results

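The genes examined here carry inflammatory and pain signals in osteoarthritis (OA): *Il1b*, *Il6*, *Tnf*, *Ccl2*, *Cxcl12*, *Ptgs2*, *Nos2*, and *Nfkbia*. They were chosen by exact gene name, and each matched 1 row, so that 8 of the 55401 genes in the count table were followed. By the labels the tissue was knee articular cartilage, and the methods of the study add subchondral bone. It came from male C57BL/6J mice, 10 weeks old when the right knee underwent destabilization of the medial meniscus (DMM), a surgery that makes the joint unstable and induces OA, and was taken 2 weeks later. There were 4 WT and 3 Trpc1-/- samples by the labels, which were used although the methods give these numbers the other way round, and each sample pooled 2 to 3 mice. The Trpc1-/- mice lacked exon 8 of *Trpc1* in the germ line, so that blood and marrow cells carried the deletion as well as chondrocytes, and the WT mice came from the same colony. All 7 samples had undergone DMM. No sham-operated sample was analysed here, so the values compare the genotypes after surgery and not a joint before and after it.

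IL-1β and TNF are cytokines released mainly by myeloid cells, and both drive chondrocytes to make enzymes that degrade cartilage. Their receptors activate NF-κB, a transcription factor that is held in the cytoplasm by IκBα, the product of *Nfkbia*. NF-κB in turn raises transcription of *Il6*, *Ccl2*, *Ptgs2*, *Nos2*, and of *Nfkbia* itself, which closes a negative feedback loop. *Ptgs2* encodes the inducible cyclooxygenase that supplies prostaglandins, *Nos2* the inducible nitric oxide synthase, and *Ccl2* the chemokine that draws monocytes into the joint. *Cxcl12* differs from the others, being made steadily by stromal cells, above all the reticular cells of marrow, and holding blood cell precursors and immune cells in place through the receptor CXCR4.

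Library totals ran from 52142451 counts, in WT replicate 1, to 118254070 counts. Levels are given as CPM, counts scaled to a common library size after normalization by the TMM method. *Trpc1*, counted over the whole gene and not over the deleted exon, averaged 4.62 CPM (± 0.229 SD, n = 4) in WT and 3.39 CPM (± 0.379 SD, n = 3) in Trpc1-/- samples. Markers of chondrocytes were present, with none of 12 at 0 counts in all samples, and their summed level was 6232 to 6492 CPM in WT but 3539, 6493, and 3844 CPM in Trpc1-/- replicates 1 to 3. Marrow and blood were also in the tissue: 12 neutrophil markers summed to between 13185 and 17824 CPM in 6 samples, and to 5753 CPM in WT replicate 1. That sample stood apart, with a mean correlation of 0.960 with the others over the tested genes (0.983 or more for each of the rest). Its summed level of 8 skeletal muscle markers was 2869 CPM, against 145 to 480 CPM in the other WT and 643 to 1886 CPM in the Trpc1-/- samples. The logFC of each member is therefore also given without it, as are those of some pathway genes. In tissue of mixed cells, fewer cells of a type and less RNA per cell cannot be told apart.

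Of the 8 genes, *Cxcl12*, *Nfkbia*, *Il1b*, *Tnf*, and *Ptgs2* passed the filter on low counts, which required more than 1 CPM in at least 2 samples and left 16429 genes. *Il6* exceeded 1 CPM in 0 samples, and *Ccl2* and *Nos2* in 1 sample each. No member was at 0 counts in any sample, and the smallest count was 8, for *Il6* in WT replicate 1. Levels of different genes were compared as RPKM, in which CPM are divided by the exon length of the gene in kilobases. *Cxcl12* was the highest, at 52.5 to 64.1 RPKM over the 7 samples, followed by *Nfkbia* at 25.2 to 30.9, *Il1b* at 5.23 to 11.7, and *Tnf* at 2.19 to 4.89 RPKM. The ranges of these 4 genes did not overlap. *Ptgs2*, at 0.423 to 0.927 RPKM, and *Ccl2*, at 0.352 to 0.923 RPKM, could not be separated from each other by their spread, nor could *Nos2*, at 0.111 to 0.262 RPKM, and *Il6*, at 0.0695 to 0.234 RPKM. By mean RPKM, *Cxcl12* was in the top 3.33% and *Nfkbia* in the top 7.16% of the tested genes, whereas *Ptgs2* ranked 14727 of 16429. The constitutive chemokine and the NF-κB inhibitor were thus abundant, and the inducible enzymes and *Il6* were near the lower end of what was measured.

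**Figure D1:**
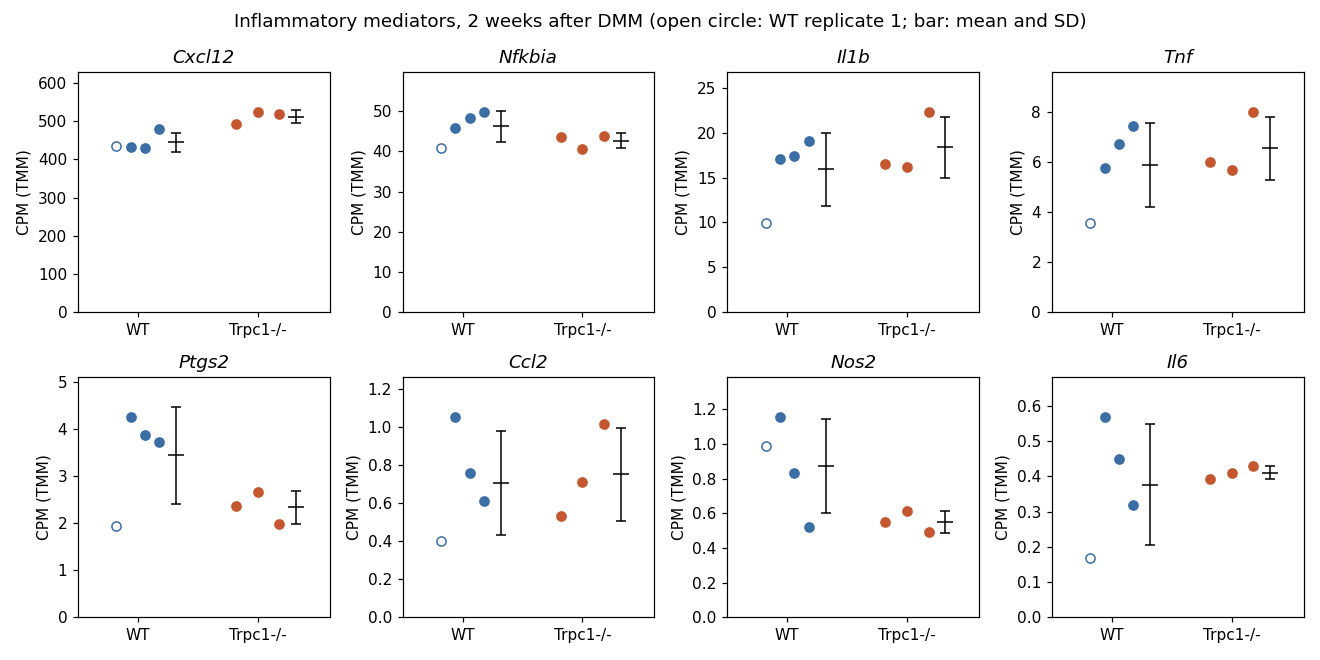
CPM (TMM-normalized, linear axes from 0) of the 8 genes in 4 WT (blue) and 3 Trpc1-/- samples (orange), with points of a group in the order of replicate number and black bars for the mean and SD. The open circle is WT replicate 1, which was the lowest of the 7 samples for *Il1b*, *Tnf*, *Ptgs2*, *Ccl2*, and *Il6*, while the Trpc1-/- samples of *Cxcl12* all lay above the WT samples.

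The sequence before the start site of *Il1b*, *Tnf*, *Il6*, and *Nfkbia* is shown because the first pair varied together across the samples and the second pair holds the NF-κB motif. Of the 8 genes, 6 matched an entry in the RefSeq promoter table (GRCm38.p6); *Ccl2* and *Nos2* did not. The 250 bases before each start were searched on both strands. The κB consensus of NF-κB was in 2 of the 6 promoters, *Il6* and *Nfkbia*, and in 3.90% of 32851 promoter windows of the same length. The TATA box, searched as TATAAA, was in *Il1b* and *Tnf*, and in 12.4% of all windows. The AP-1 motif TGANTCA was in *Il6* and in 6.75% of all, the CRE motif TGACGTCA was in 0 of the 6 and 1.55% of all, and the C/EBP motif TTNNGNAA was in 4 of the 6 and 36.8% of all. A match gives the letters only and does not show binding. Below, capitals mark κB, TATA box, and AP-1 matches, and each sequence is written 5′ to 3′ on the strand of its gene.
Il1b, chr2:129371140-129371389, minus strand: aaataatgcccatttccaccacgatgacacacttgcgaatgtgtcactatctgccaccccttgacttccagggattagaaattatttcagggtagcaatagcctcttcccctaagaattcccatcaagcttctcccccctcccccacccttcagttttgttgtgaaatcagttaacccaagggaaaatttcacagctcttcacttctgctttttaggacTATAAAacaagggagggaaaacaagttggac
Tnf, chr17:35202008-35202257, minus strand: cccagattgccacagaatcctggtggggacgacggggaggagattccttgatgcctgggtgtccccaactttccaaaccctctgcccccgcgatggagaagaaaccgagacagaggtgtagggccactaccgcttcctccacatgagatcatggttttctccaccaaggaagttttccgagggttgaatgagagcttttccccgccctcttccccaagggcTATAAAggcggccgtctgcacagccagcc
Il6, chr5:30012864-30013113, plus strand: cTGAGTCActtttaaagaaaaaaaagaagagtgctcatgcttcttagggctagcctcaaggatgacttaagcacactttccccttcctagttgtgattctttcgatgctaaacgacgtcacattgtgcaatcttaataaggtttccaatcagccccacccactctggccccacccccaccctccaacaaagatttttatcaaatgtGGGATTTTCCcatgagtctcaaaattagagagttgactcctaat
Nfkbia, chr12:55492648-55492897, minus strand: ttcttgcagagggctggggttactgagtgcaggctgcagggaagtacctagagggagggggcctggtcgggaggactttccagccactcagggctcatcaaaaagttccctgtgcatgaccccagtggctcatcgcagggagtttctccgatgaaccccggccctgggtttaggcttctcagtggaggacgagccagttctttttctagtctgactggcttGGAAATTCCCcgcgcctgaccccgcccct

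Neither of the cytokines that start the cascade passed the test between the genotypes. *Il1b* lies on chromosome 2 from 129364570 to 129371139 (GRCm38, minus strand), where an antisense gene, Il1bos, overlaps it. It measured 9.97, 17.1, 17.5, and 19.1 CPM in WT replicates 1 to 4 and 16.6, 16.2, and 22.3 CPM in Trpc1-/- replicates 1 to 3. WT replicate 1 was the lowest, Trpc1-/- replicate 3 the highest, and the remaining 5 samples lay close together in between. The log2 fold change (logFC) of Trpc1-/- against WT was 0.20 (SE 0.22, 95% interval −0.32 to 0.72, edgeR adjusted P = 0.742, from the quasi-likelihood test adjusted by Benjamini-Hochberg over all genes tested). Without WT replicate 1 it was 0.036 (SE 0.12, adjusted P = 0.912). *Tnf* lies on chromosome 17 from 35199381 to 35202007 on the minus strand and measured 3.58, 5.77, 6.72, and 7.44 CPM in WT and 6.00, 5.69, and 8.02 CPM in Trpc1-/- samples. The lowest and the highest sample were the same as for *Il1b*. Its logFC was 0.15 (± 0.25 SE, 95% interval −0.42 to 0.73, edgeR adjusted P = 0.830) and changed sign, to −0.018, without WT replicate 1. Across the 7 samples the log2 CPM of *Il1b* and *Tnf* had a Pearson correlation of 0.981, which was 0.926 over the 6 samples without WT replicate 1. Samples share depth and cell makeup, and the correlation is given as a description.

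Marker genes of myeloid and several other blood cells were low in the same WT sample as both cytokines. In WT replicate 1, *Il1b* stood at 0.557 and *Tnf* at 0.539 of their mean in the other WT samples. The summed neutrophil markers stood at 0.359 and the 12 macrophage and monocyte markers at 0.603 of theirs, with 746 CPM in WT replicate 1 and 1141 to 1278 CPM in the other 6 samples. Of the 12 neutrophil markers, 11 were lowest in WT replicate 1 among all 7 samples, as were 10 of the 12 macrophage and monocyte markers. Markers of erythroid cells (0.576), T and NK cells (0.500), osteoclasts (0.577), and mast cells and basophils (0.629) were about as low. The summed chondrocyte markers of that sample were 1.02 times their mean in the other WT, and those of osteoblasts and osteocytes 1.55, of synovial lining and fibroblasts 1.39, and of skeletal muscle 9.13 times. The chondrocyte sum leans on *Col2a1* (3300 CPM against 2697 to 2967 CPM in the other WT). The osteoblast and osteocyte sum leans on *Col1a1* (12770 against 6331 to 8405 CPM). Averaged over markers as log2 CPM, both lists were lowest in WT replicate 1 among the WT samples. Chondrocyte markers averaged 7.28 against 7.62 to 7.67, and osteoblast and osteocyte markers 7.31 against 7.39 to 7.57. *Il6*, *Ptgs2*, and *Ccl2* stood at 0.379, 0.492, and 0.497 in the same sample, but *Nos2* at 1.19, *Cxcl12* at 0.974, and *Nfkbia* at 0.854. The part of cell makeup in these differences was not tested.

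**Figure D2:**
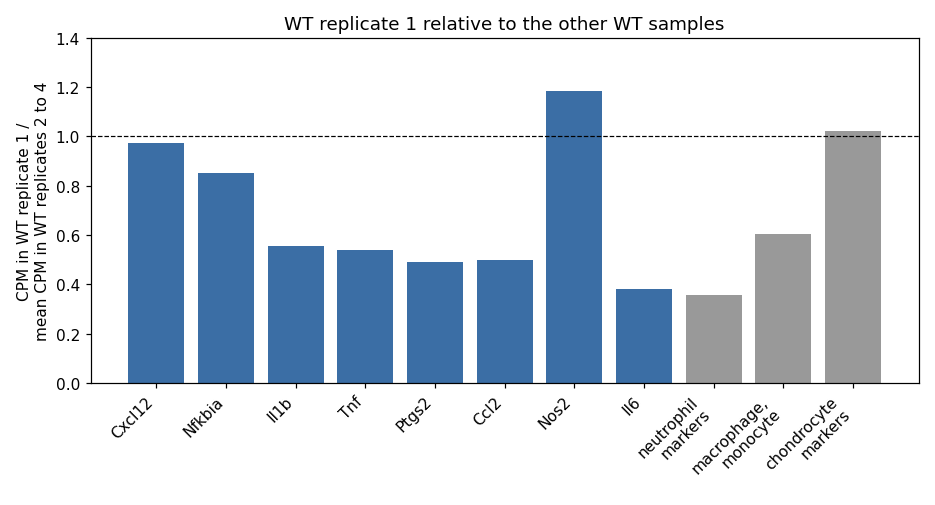
CPM in WT replicate 1 divided by the mean CPM of WT replicates 2 to 4, for the 8 genes (blue) and for the summed markers of 3 cell types (grey); the dashed line is 1. *Il1b*, *Tnf*, *Ptgs2*, *Ccl2*, and *Il6* lay between 0.379 and 0.557, and the neutrophil markers at 0.359. *Cxcl12* and the chondrocyte sum, which leans on *Col2a1*, were near 1.

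*Il6* and *Ccl2*, the cytokine and the chemokine downstream of NF-κB, were scarce in both genotypes. *Il6* lies on chromosome 5 from 30013114 to 30019981 and was covered by 8, 60, 55, and 25 counts in the 4 WT samples and by 48, 38, and 42 in the 3 Trpc1-/- samples, or 0.169, 0.568, 0.448, and 0.318 against 0.392, 0.409, and 0.429 CPM. The Trpc1-/- samples lay within the range of the WT samples. *Ccl2* lies on chromosome 11 from 82035571 to 82037453, overlapped by a gene on the other strand, and had 19, 111, 93, and 48 counts in WT and 65, 66, and 99 counts in Trpc1-/- samples, or 0.400, 1.05, 0.757, and 0.611 against 0.531, 0.711, and 1.01 CPM. Here too all Trpc1-/- samples fell between the lowest and the highest WT sample. Tested in the fit without the filter, *Il6* had a logFC of 0.10 (95% interval −0.77 to 0.97, adjusted P = 0.974 in edgeR) and *Ccl2* one of 0.081 (95% interval −0.74 to 0.90, adjusted P = 0.976 in edgeR). Both turned negative without WT replicate 1, to −0.12 and −0.11. Differences inside these wide intervals could not be told from none.

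Both inducible enzymes had lower means in Trpc1-/- samples, and neither passed the test. *Ptgs2*, on chromosome 1 from 150100031 to 150108227, measured 1.94, 4.25, 3.86, and 3.72 CPM in WT and 2.36, 2.66, and 1.97 CPM in Trpc1-/- samples. WT replicate 1 was the lowest of all samples, and the other 3 WT samples were each above every Trpc1-/- sample. The WT mean was 3.44 CPM (± 1.03 SD, n = 4) and the Trpc1-/- mean 2.33 CPM (± 0.344 SD, n = 3), for a logFC of −0.57 (± 0.27 SE, 95% interval −1.20 to 0.067, edgeR adjusted P = 0.523, 0.398 in DESeq2). Without WT replicate 1, the logFC became −0.76 ± 0.15 (SE), and the adjusted P was 0.105 by edgeR and 0.000847 by DESeq2, the range over all alternatives being 0.000847 to 0.969. With that sample left out, DESeq2 called 5.49% of all genes tested. *Nos2*, on chromosome 11 from 78920787 to 78960254, had 47, 122, 102, and 41 counts in WT and 67, 57, and 48 counts in Trpc1-/- samples, or 0.991, 1.15, 0.830, and 0.522 against 0.547, 0.614, and 0.491 CPM. WT replicates 1 to 3 were above all Trpc1-/- samples, and WT replicate 4 lay among them. In the fit without the filter its logFC was −0.64 (± 0.29 SE, 95% interval −1.30 to 0.024, edgeR adjusted P = 0.735), and it was −0.61 without WT replicate 1.

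*Cxcl12* was the one member whose groups did not overlap. The gene lies on chromosome 6 from 117168535 to 117181367 and measured 435, 432, 429.5, and 479.5 CPM in WT and 494, 524, and 518 CPM in Trpc1-/- samples. WT replicate 4 was the WT sample closest to the Trpc1-/- samples. The WT mean was 444 CPM (± 23.7 SD, n = 4) and the Trpc1-/- mean 512 CPM (± 16.2 SD, n = 3), for a logFC of 0.20 (± 0.089 SE, 95% interval −0.00072 to 0.41, unadjusted P = 0.0506, edgeR adjusted P = 0.499, adjusted P = 0.0745 in DESeq2). Without WT replicate 4 the adjusted P was 0.00618 in DESeq2, which then called 1.72% of the genes, and over all alternatives it ranged from 0.00618 to 0.932. Without WT replicate 1 the logFC was 0.19 (± 0.075 SE, edgeR adjusted P = 0.255). Groups that did not overlap were found for 13.6% of all tested genes, so 1 of the 5 members tested is near that background. Markers of the marrow reticular cells that make CXCL12 were also higher in sum: 9 such markers other than *Cxcl12* summed to 518, 607, 623, and 613 CPM in WT and to 702, 671, and 740 CPM in Trpc1-/- samples, with 7 of the 9 higher in mean, 3 without overlap, and 0 called by edgeR. The most abundant of the 9 was *Vcam1*, with 168, 272, 293, and 273 CPM in WT and 341, 298, and 363 CPM in Trpc1-/- samples, so the sum leans on it. *Foxc1* and *Ebf1* were lower in mean in Trpc1-/- samples, *Foxc1* with 22.3 to 26.8 CPM in WT and 19.9 to 23.35 CPM in Trpc1-/- samples. The summed erythroid markers were 18474 to 35636 CPM in WT and 41160 to 56545 CPM in Trpc1-/- samples. The part of these cells in the level of *Cxcl12* was not tested.

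*Nfkbia*, on chromosome 12 from 55489410 to 55492647, measured 40.9, 45.7, 48.3, and 49.8 CPM in WT and 43.4, 40.5, and 43.9 CPM in Trpc1-/- samples. WT replicate 1 lay among the Trpc1-/- samples, and the other WT samples were above them. The logFC was −0.12 (± 0.084 SE, 95% interval −0.31 to 0.079, edgeR adjusted P = 0.628), and −0.17 (SE 0.060, adjusted P = 0.223) without WT replicate 1. The difference was small beside that of the enzymes, and the interval leaves out a fall of more than 0.31 on the log2 scale. With WT replicate 1 left out, the groups of *Ptgs2*, *Nfkbia*, and *Cxcl12* did not overlap, 3 of 5 members tested, compared with 22.9% of all tested genes.

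At an adjusted P under 0.05, edgeR called 0 of the 5 members tested and 0% of the 16429 genes, and without the filter 0 of the 8 members and 0% of 35522 genes. DESeq2 called 0 of the 5, against 1.79% of the genes. An unadjusted P under 0.05 was found for 0 of the 5 members in edgeR and for 10.0% of the genes. The number within each library name in the labels, whose meaning is not stated, falls into a 1300s series, which holds WT replicates 1 and 2 and all Trpc1-/- samples, and a 1700s series, which holds WT samples only. Within the 1300s, the logFC was 0.43 for *Il1b*, 0.48 for *Tnf*, 0.12 for *Il6*, 0.037 for *Ccl2*, −0.42 for *Ptgs2*, −0.91 for *Nos2*, 0.24 for *Cxcl12*, and −0.025 for *Nfkbia*, all with an adjusted P of 0.404 or more in edgeR. Each sign was that of the fit with all samples, but this series rests on WT replicate 1 for a WT group of 2.

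**Figure D3:**
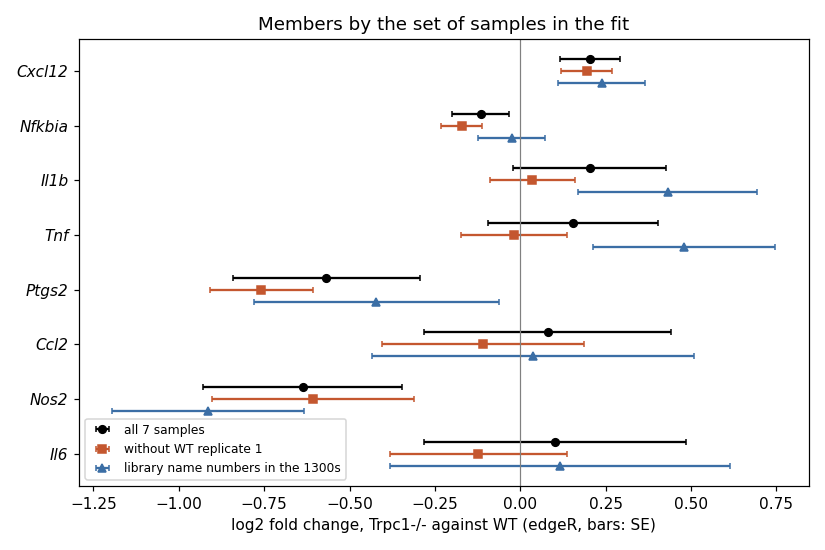
LogFC of Trpc1-/- against WT (edgeR) with bars of 1 SE, for all 7 samples (black), without WT replicate 1 (orange), and for library name numbers in the 1300s alone (blue). *Cxcl12* stayed between 0.19 and 0.24 and *Ptgs2* and *Nos2* stayed below 0 in all 3 sets, whereas *Tnf*, *Ccl2*, and *Il6* lay on both sides of 0.

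A set of 12 pathway lists placed the members among their receptors and partners. Of 183 genes listed, 152 were tested, 69 with a higher and 83 with a lower mean in Trpc1-/- samples. edgeR called 0 of them, and 16 (10.5%) had an unadjusted P under 0.05, close to the 10.0% of all genes. The groups did not overlap for 20 of the 152 (9 higher and 11 lower, 13.2%), against 13.6% of all tested genes, so over all lists together such cases were as frequent as in the background. By list, the share was 0% in the TNF, nitric oxide, and inflammasome lists. It was 33.3% (5 of 15) in the prostanoid list and 60.0% (3 of 5) in the list of pain genes. Over the 152 genes the median logFC was −0.019, and −0.0088 over all tested genes. DESeq2 called 1, *Ackr3*, which encodes the scavenger receptor that removes CXCL12 from the tissue. It measured 29.9, 32.7, 33.7, and 22.4 CPM in WT and 21.03, 20.3, and 18.2 CPM in Trpc1-/- samples. All Trpc1-/- samples were below all WT samples, WT replicate 4 by a small margin. Its logFC was −0.58 (SE 0.14, edgeR adjusted P = 0.395, DESeq2 adjusted P = 0.0335), and DESeq2 called it in 2 of the 7 fits with a sample left out, with an adjusted P of up to 0.493. *Cxcr4*, the signaling receptor, had a logFC of 0.0068 (± 0.19 SE, edgeR adjusted P = 0.991), with 102 CPM in WT replicate 1 and 141 to 176 CPM in the other samples, and −0.15 without WT replicate 1. Of the 11 tested CXC chemokines and receptors, 8 were higher and 3 lower in mean, and of the 10 tested CC chemokines and receptors 7 were higher and 3 lower. *Ccr7*, the receptor that guides lymphocytes and dendritic cells to lymph nodes, had an unadjusted P of 0.0163 in edgeR (logFC 0.49, adjusted P = 0.430), with groups that did not overlap. *Ccr2*, the receptor for CCL2, measured 111 CPM in WT replicate 1 and 198 to 261 CPM in the other samples, and *Ccl6*, a myeloid chemokine, 46.5 CPM and 82.3 to 131 CPM. Their logFC values changed sign without WT replicate 1, from 0.038 to −0.17 and from 0.025 to −0.21.

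The prostanoid list, the pathway of *Ptgs2*, had 15 genes tested, 6 higher and 9 lower in mean, and 4 (26.7%) with an unadjusted P under 0.05 in edgeR, against 10.0% of all tested genes. *Ptgs1*, the constitutive cyclooxygenase, was far more abundant than *Ptgs2*, with a mean of 13.6 RPKM against 0.647 RPKM. It measured 52.7, 57.5, 54.9, and 61.1 CPM in WT and 50.4, 48.0, and 46.0 CPM in Trpc1-/- samples. All Trpc1-/- samples were below all WT samples (logFC −0.23, SE 0.075, adjusted P = 0.430 in edgeR). *Ptgis*, which makes prostacyclin, had a logFC of −0.29 (± 0.10 SE, edgeR adjusted P = 0.450) and measured 37.2, 46.4, and 36.2 CPM in Trpc1-/- replicates 1 to 3. Replicate 2, the highest of these, was also the Trpc1-/- sample with the highest chondrocyte markers, and the part of chondrocyte content was not tested. *Hpgds*, a prostaglandin D synthase of immune cells, and *Ptges3*, a cochaperone also described as a prostaglandin E synthase, were above the WT range in each Trpc1-/- sample, with logFC values of 0.27 (± 0.082 SE, edgeR adjusted P = 0.408) and 0.29 (± 0.11 SE, edgeR adjusted P = 0.462). *Ptges*, the inducible prostaglandin E synthase that works with *Ptgs2*, had a logFC of −0.26 (± 0.14 SE, edgeR adjusted P = 0.556). In the nitric oxide and arginine list, 3 of 12 genes were higher and 9 lower, and *Gch1*, which makes the cofactor of nitric oxide synthases, had an unadjusted P of 0.0259 in edgeR (logFC 0.37, adjusted P = 0.455) with groups that overlapped. *Hpgd*, which degrades prostaglandins, measured 18.9 CPM in WT replicate 1 and 34.9 to 38.5 CPM in the other WT, below the 39.4 to 42.1 CPM of the Trpc1-/- samples (logFC 0.34, SE 0.22, and 0.16 without WT replicate 1). *Ddah2* and *Ass1*, the most abundant genes of the nitric oxide list, had logFC values of −0.22 (SE 0.12) and −0.12 (SE 0.32), the latter −0.36 without WT replicate 1.

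**Figure D4:**
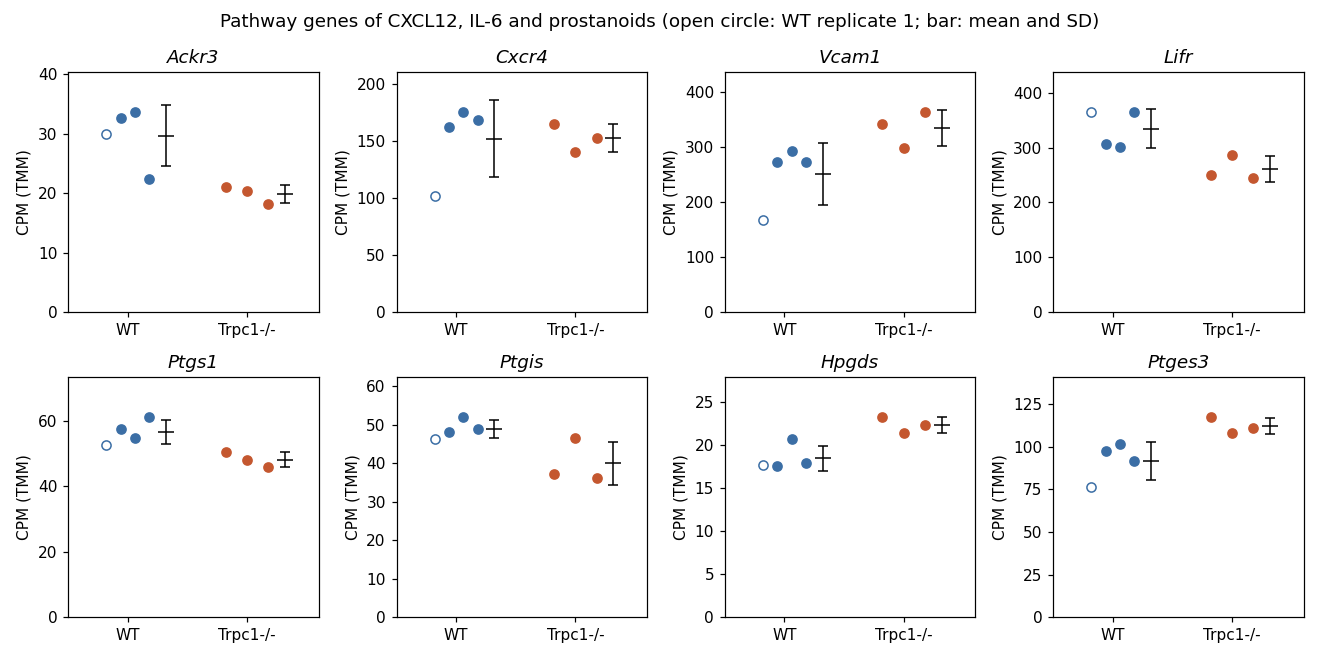
CPM (TMM-normalized, linear axes from 0) of 8 pathway genes in 4 WT (blue) and 3 Trpc1-/- samples (orange), with points in the order of replicate number and black bars for the mean and SD; the open circle is WT replicate 1. *Ackr3*, *Lifr*, and *Ptgs1* were lower and *Vcam1*, *Hpgds*, and *Ptges3* higher in all Trpc1-/- samples than in any WT sample, whereas *Cxcr4* and *Ptgis* overlapped.

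No receptor or signaling gene of the cascade passed the test in edgeR. In the IL-1 list, 12 of 18 genes tested were higher and 6 lower, with a median logFC of 0.044, and only *Il1rl1*, the IL-33 receptor, had an unadjusted P under 0.05 in edgeR (logFC 0.31, SE 0.13, adjusted P = 0.487). *Il1r1*, the signaling receptor of IL-1β, had a logFC of −0.13 (SE 0.20), and *Il1rn*, its natural antagonist, one of 0.045 (SE 0.19). The most abundant genes of this list, *Il1f9*, which encodes IL-36γ, and *Irak1*, a kinase of the receptor complex, had logFC values of 0.16 (SE 0.15) and −0.025 (SE 0.063), and of 0.066 and −0.041 without WT replicate 1. In the TNF list, 6 of 11 were higher and 5 lower and 0 had an unadjusted P under 0.05. Its receptors *Tnfrsf1a* and *Tnfrsf1b* had logFC values of −0.074 (SE 0.091) and −0.0081 (SE 0.12), and of −0.13 and −0.099 without WT replicate 1. The IL-6 list had 4 of 15 genes higher and 11 lower, with a median of −0.11. *Lifr*, the receptor of leukemia inhibitory factor, was below the WT range in all Trpc1-/- samples (logFC −0.36, SE 0.12, adjusted P = 0.426 in edgeR), with 249, 287, and 245 CPM in Trpc1-/- replicates 1 to 3 and 301 to 365 CPM in WT. The highest of these 3 was the sample in which the chondrocyte markers were also highest, and the part of chondrocyte content was not tested. *Il6ra* and *Il6st*, which form the IL-6 receptor, had logFC values of −0.11 (SE 0.12) and −0.083 (SE 0.084), and *Jak1*, a kinase they signal through, one of 0.073 (SE 0.084, and 0.037 without WT replicate 1). Of the 18 genes of the NF-κB core, 5 were higher and 13 lower, with a median of −0.065 and 0 at an unadjusted P under 0.05, and *Rela*, *Nfkb1*, and *Ikbkb* had logFC values of −0.063, −0.028, and −0.20. *Tab2*, an adaptor of the TAK1 kinase, had one of 0.080 (SE 0.078). Among 14 NF-κB feedback targets, 5 were higher and 9 lower. *Tnfaip3*, which encodes the inhibitor A20, had a logFC of −0.037 (SE 0.062). *Bcl2l1*, which encodes the survival factor BCL-XL, and *Vcam1*, an adhesion molecule also among the reticular markers, did not overlap between the groups and were higher in Trpc1-/- samples (logFC 0.26 and 0.41, adjusted P = 0.409 and 0.511 in edgeR). Without WT replicate 1, which had 168 CPM of *Vcam1* against 272 to 293 CPM in the other WT, these were 0.24 and 0.26. Inflammasome genes, whose products cleave pro-IL-1β, were higher in mean for 8 of 10, with a median of 0.054 and 0 at an unadjusted P under 0.05. *Gsdmd*, the pore protein that releases IL-1β, had a logFC of −0.13 (SE 0.089), and *Casp1*, the cleaving protease, one of 0.17 (SE 0.21). The latter was −0.0022 without WT replicate 1, which had 11.7 CPM of *Casp1* against 20.9 to 22.3 CPM in the other WT.

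Genes of pain signaling were mostly too low to test. Only 5 of 18 passed the filter. *Scn10a*, a sodium channel of nociceptors, had 0 counts in all samples, and *Calca*, the gene of the neuropeptide CGRP, had 0 counts in 6 of 7 samples and 5 counts in the other. The cell bodies of sensory neurons lie outside the joint. *Csf1*, the macrophage growth factor, did not overlap between the groups, with 44.3 to 48.2 CPM in WT and 34.9 to 42.2 CPM in Trpc1-/- samples (logFC −0.24, SE 0.080, adjusted P = 0.435 in edgeR). *Prokr1*, a prokineticin receptor, was higher in all 3 Trpc1-/- samples than in the WT samples, with a logFC of 0.19 (± 0.100 SE, edgeR adjusted P = 0.541). The margin was small, with 6.81 to 7.36 CPM in WT and 7.48 to 9.01 CPM in Trpc1-/- samples.

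The tested genes most like each member were sought by the Pearson correlation of log2 CPM over the 7 samples, as a description. For *Il1b* they were *Actr3-ps*, *Nceh1*, and *Gk* (0.993, 0.989, and 0.989), and for *Tnf* *Gad1-ps*, *Chrac1*, and *Gk* (0.995, 0.992, and 0.988). For *Cxcl12* they were *Gm6377*, *Siglec1*, and *Slc26a7* (0.987, 0.978, and 0.971). For *Nfkbia* they were *Washc1*, *Cirbp*, and *Prune1* (0.990, 0.985, and 0.984), and for *Ptgs2* *Gm12447*, *Thnsl2*, and *Rbfaos* (0.985, 0.983, and 0.981). With 7 samples many genes reach such values: 866 genes exceeded 0.9 for *Il1b* and 684 for *Tnf*, but 79 for *Cxcl12*. Without WT replicate 1 the correlations of these pairs lay between 0.955 and 0.994 over 6 samples.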

How the data were processed

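RNA-Seq was analysed in 4 WT and 3 Trpc1-/- samples. Libraries were stranded, paired-end, and depleted of ribosomal RNA. The authors trimmed reads with Cutadapt 2.5, aligned them to GRCm38 with HISAT2 2.1.0, and ran StringTie 2.0.3. The deposited table holds estimated counts for each gene that derive from StringTie coverage, which were whole numbers without normalization. All 7 columns were used.

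Genes were kept if over 1 CPM in 2 or more samples. They were normalized by TMM and tested in R 4.3.3 with edgeR 4.0.16 (quasi-likelihood, genotype as the one term), and P values were Benjamini-Hochberg adjusted over all tested genes at a threshold of 0.05. Members under the filter were tested in a fit without it. DESeq2 1.42.0, the tool of the study, was an alternative, as were RLE normalization, 2 other filters, each sample left out, the replicate block, and the samples whose library names carry numbers in the 1300s. DESeq2 with each sample left out was added after the data were seen. SEs came from the F statistic, and correlations used log2(CPM + 0.5). Positions and exon lengths were from GENCODE M21. Motifs were searched before the start site only. A floor of 3 counts equals 0.0244 to 0.0632 CPM and covers counting error only. The fits were first tested on simulated data.

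The members and lists were chosen with earlier results of these data known. Besides the members, the text names *Trpc1*, in each list the 2 genes with the highest RPKM and at most 4 with an unadjusted edgeR P or a DESeq2 adjusted P under 0.05, and the 3 genes most correlated with each tested member. *Il1r1*, *Il1rn*, *Il6ra*, *Il6st*, *Rela*, *Nfkb1*, *Ikbkb*, *Tnfaip3*, *Ptges*, *Scn10a*, and *Calca* were named for their role after their values were seen. Some genes covered by the rule are left out of the text.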

Additional observations from a re-analysis of the deposited data

Results flagged for a closer look

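*Cxcl12* measured 479.5 CPM in WT replicate 4, whose gap to the nearest other WT sample was 0.882 of the range of the 4 WT samples. The other 3 WT samples lay between 429.5 and 435 CPM. Of the 8 members, this was the only one whose WT group held a sample that far from the rest. Without WT replicate 4 the logFC of *Cxcl12* was 0.24 (± 0.095 SE, edgeR adjusted P = 0.474).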

How the results depend on the processing

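Of 157 values of the members' logFC under the alternatives, 139 kept their direction and side of the threshold, 6 kept their direction but had no adjusted P in DESeq2, 10 changed sign, and 2 passed the threshold. DESeq2 called 294 genes in place of 0 by edgeR, where 1643 had an unadjusted P under 0.05, and 1 gene in place of 0 among the pathway lists. With a sample left out, edgeR called 0 to 52 genes, the latter without WT replicate 1, and DESeq2 called 892, 62, 134, and 281 without WT replicates 1 to 4 and 84, 371, and 37 without Trpc1-/- replicates 1 to 3. The lowest and highest logFC with a sample left out in edgeR or DESeq2 were −0.12 and 0.38 for *Il6* (highest in edgeR 0.37), −0.018 and 0.29 for *Tnf*, −0.18 and 0.35 for *Ccl2*, −0.76 and −0.45 for *Ptgs2*, 0.18 and 0.25 for *Cxcl12*, 0.036 and 0.31 for *Il1b*, −0.82 and −0.44 for *Nos2*, and −0.17 and −0.075 for *Nfkbia*. *Il1b* was also 0.039 in edgeR without Trpc1-/- replicate 3. Without WT replicate 1, edgeR and DESeq2 gave −0.12 and −0.12 for *Il6*, −0.018 and −0.014 for *Tnf*, and −0.11 and −0.11 for *Ccl2*. Without Trpc1-/- replicate 3 they gave −0.013 and −0.0054 for *Tnf* and −0.18 and −0.17 for *Ccl2*. The 2 that passed were *Ptgs2* without WT replicate 1 (−0.76) and *Cxcl12* without WT replicate 4 (0.25), both in DESeq2. The cause was not tested. Same-numbered samples are different animals, and their deviations from the group means correlated at −0.435, −0.312, and −0.014. With groups of 4 and 3 and WT replicate 1 apart from the rest, these values cannot decide whether the numbers pair the samples. With the replicate block 0 genes passed in edgeR, and 972 had an unadjusted P under 0.05. *Il6*, *Ccl2*, and *Nos2* rest on 8 to 122 counts a sample, and whether depth or the spread between samples sets their SE was not tested.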

Other observations

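Immediate early genes, which cells transcribe within minutes of a stimulus or of tissue handling, share regulators with *Ptgs2* and *Nfkbia*. Of 17 tested, 5 were higher and 12 lower in Trpc1-/- by mean, and the median logFC was −0.16 against −0.0088 over all tested genes. Of these, 4 (23.5%) had an unadjusted P under 0.05 in edgeR, against 10.0% of all tested genes, and 0 passed after adjustment. *Dusp1*, a phosphatase that limits MAP kinase signaling, measured 46.0, 36.1, 31.95, and 33.8 CPM in WT and 29.9, 26.6, and 25.2 CPM in Trpc1-/- samples, so that the groups did not overlap (logFC −0.44, SE 0.14, adjusted P = 0.410 in edgeR). *Klf4* had a logFC of −0.39 (± 0.11 SE, edgeR adjusted P = 0.407), also without overlap, by a small margin, and *Egr3* one of −0.53 (± 0.22 SE, edgeR adjusted P = 0.486), with overlap. *Jund*, an abundant member, had a logFC of 0.074 (SE 0.092). *Btg2*, an antiproliferative gene, lay above the WT range in all 3 Trpc1-/- samples (logFC 0.24, SE 0.100, adjusted P = 0.496 in edgeR). In WT replicate 1, where *Ptgs2* and *Il1b* were lowest, the named immediate early genes did not move together. *Dusp1*, *Klf4*, and *Egr3* were highest of the 7 samples there, and without that sample their edgeR logFC values were −0.32, −0.32, and −0.38. *Btg2* was lowest there, at 87.4 CPM against 97.6 to 125 CPM in the other samples. *Jund*, at 43.8 CPM, lay within the 42.5 to 51.8 CPM of the others.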
